A study of Mus musculus with 6 samples.

Results

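Reads of the C57BL/6 allele and of the castaneus allele were compared in 12052 autosomal genes of unstimulated splenic T cells from F1 hybrid mice. A gene was taken when it lay on chromosomes 1 to 19 and had at least 20 reads that could be given to an allele in each of the 3 unstimulated libraries. These 12052 genes came from 45365 autosomal genes, among 49671 genes in the tables. The mice were females from C57BL/6 mothers with an Xist deletion on 1 of their X chromosomes and M. m. castaneus fathers. The cells were splenic CD3+ T cells from enrichment columns, collected straight into TRIzol, 1 library for each of 3 biological replicates. The series also holds 3 libraries of cells stimulated with anti-CD3 and anti-CD28 for 48 hours, which enter no test here; their castaneus shares are given only as a description, for the genes of the chromosome blocks among the closing observations. Its title places the study in NF-kB signalling, Xist RNA and the inactive X chromosome.

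In an F1 hybrid each autosomal gene has 1 allele from each strain in the same nucleus, so both alleles meet the same transcription factors, hormones and cell types. Where reads are given to the right allele, a difference in their RNA marks something carried on the chromosome copy itself, such as sequence in a promoter, an enhancer or a transcript, or a parental imprint. Imprinted genes are read from the maternal or the paternal copy according to DNA methylation laid down in the germ line. By the cross given in the labels the C57BL/6 allele was maternal and the castaneus allele paternal, so strain and parent of origin cannot be told apart for any single gene. The labels do not say which animals gave which replicates or how reads were given to an allele. Of the 12052 genes, 7781 have no exon known to overlap one of another annotated gene, 22 of them because they had no annotation entry. Where exons do overlap, the strand setting of the counting is not given and reads of the genes may not be told apart.

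The libraries held 11893039, 9606755 and 11747472 allelic reads, and the chosen genes held 99.3% to 99.5% of the autosomal ones. All 18 T cell markers were at 1 RPKM or more in each library, with mean log2(RPKM + 1) of 6.14, 6.18 and 5.92. Markers of other spleen cells were present too, and none of those lists had a gene at 0 in all libraries. The myeloid list had means of 4.71, 4.998 and 6.13, the erythroid and platelet list 2.79, 4.19 and 5.47, the B cell list 3.77, 3.45 and 4.35, and the NK cell list 4.97, 5.05 and 5.25. Replicate 3 was the highest in each of these 4 lists. In that library the myeloid list lay above the T cell list, with a mean of 6.13 against 5.92 and a median of 95.8 against 55.9 RPKM. The lists hold different genes, so these values do not give shares of cells. Each allele ratio is therefore that of all cells in the sample, and the part of other cells in it was not tested.

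In some stretches of chromosome 1 library stood apart from the other 2 over several genes. A gene was counted as such when 1 library's castaneus share of reads lay at least 15 points beyond the others, which lay within 10 points of each other, at 50 or more reads each. Of 10102 genes assessed, 457 met this rule, and 401 of these lay in no block. With at least 4 such genes in the same direction no more than 5 Mb apart there were 6 blocks with 56 of these genes. With at least 5 genes there were 4 blocks with 48. The rule and its thresholds were chosen after the values were seen, and looser and stricter settings gave between 3 and 146 blocks. Whether each animal carried both strains' copies along these stretches was not tested. The genes standing apart were picked for that, so their medians are a description of the pick, and the median over all genes of the stretch with at least 50 reads in each library is given beside each.

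In the block on chromosome 11 (chr11:69088490-72313733), replicate 1 had a median castaneus share of 89.7% over the 11 genes standing apart, against 50.7% and 50.3% in replicates 2 and 3. Over all 55 genes of that stretch the medians were 54.8%, 48.7% and 49.8%, so most genes between them did not stand apart. Vamp2, which encodes a SNARE protein of vesicle fusion, stood at 97.1%, 41.1% and 45.3% in replicates 1, 2 and 3. Eif5a, a translation elongation factor gene, stood at 95.02%, 53.2% and 55.7%. In both genes replicate 1 alone was read almost entirely from castaneus, and neither passed the test over the 3 libraries.

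Replicate 2 stood apart in a pair of blocks on chromosome 1. In the larger one (chr1:127270524-138979246) its median was 80.9% over the 21 genes standing apart, against 48.6% and 52.1% in replicates 1 and 3. Over all 90 genes of the stretch the medians were 48.8%, 55.8% and 50.4%. Cxcr4, the receptor for the chemokine CXCL12, stood at 37.2%, 99.7% and 40.1%, so the direction itself differed between libraries. In the other (chr1:85894281-93852348) the medians over 10 genes standing apart were 43.0%, 72.3% and 42.4%, and over all 54 genes 48.9%, 55.5% and 50.2%. Replicate 3 stood apart on chromosome 18 (chr18:5588043-10610352), with medians of 47.0%, 48.4% and 69.6% over 6 genes standing apart and 47.7%, 48.6% and 60.7% over all 13. Kif5b there, a kinesin heavy chain gene, stood at 52.2%, 49.4% and 90.5%.

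The remaining blocks had 4 such genes each. On chromosome 17 (chr17:23173869-24205562) their medians were 44.2%, 67.8% and 47.4%, but over all 12 genes 49.0%, 50.5% and 45.5%. On chromosome 4 (chr4:126489541-136145755) their medians were 57.8%, 56.7% and 38.5%, but over all 122 genes 48.4%, 48.3% and 48.4%. In both stretches the difference thus lay in the 4 picked genes, and the medians over all genes lay within 5 points of 50%. Of the 56 genes, 12 passed the test, and 113 of the 395 chosen genes inside the 6 blocks did (28.6%), near the 31.4% over all chosen genes.

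**Figure D1:**
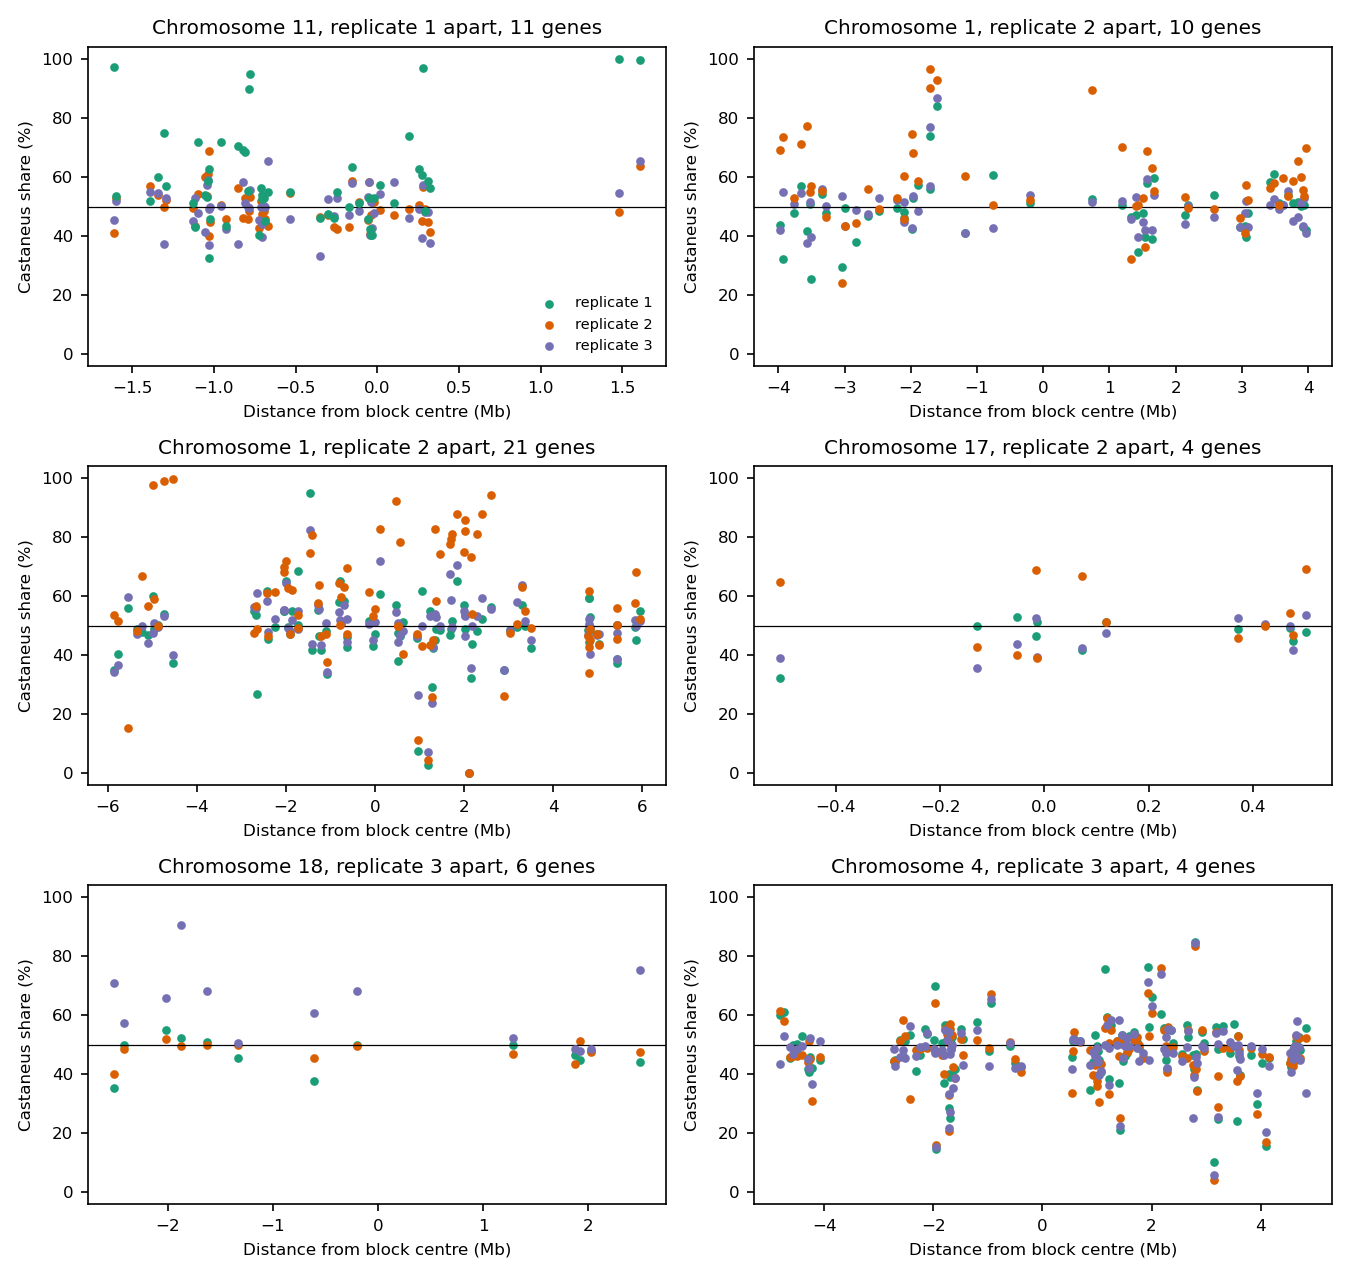
Castaneus share of allelic reads (percent) of each gene with at least 50 reads in each library, against its distance from the block's centre in Mb, for the 6 blocks. Points are genes and colours are the 3 unstimulated libraries; in the larger chromosome 1 block replicate 2 reached 99.7% at Cxcr4, while many neighbours lay near 50% in all 3 libraries.

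Over all chosen genes the alleles were close to equal. Castaneus gave 49.3%, 49.4% and 49.3% of their reads in the 3 libraries (mean 49.4% ± 0.05, SD, n = 3). An exact two-sided sign-flip test against 50% gave p = 0.25, the smallest that 3 libraries allow. The median gene had a castaneus share of 48.9%. The share lay between 45% and 55% in 6524 genes (54.1%) and between 40% and 60% in 9220 (76.5%), and the 5th and 95th percentiles were 30.9% and 69.2%. The median SD over libraries was 3.59 points.

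Of the 12052 genes, 3783 had unequal alleles (31.4%). Of these, 1511 were higher from castaneus (12.5%) and 2272 from C57BL/6 (18.9%). Of the 3783, 3755 lay on the same side of 50% in all 3 libraries. At least 2-fold differences were seen in 1352 genes (11.2%), 678 higher from castaneus (5.63%) and 674 from C57BL/6 (5.59%). Both splits depended on the scaling. With TMM factors the 2-fold genes were 736 and 611, and with each column's own total as library size 711 and 639. Among all calls, with TMM factors 1834 genes were higher from castaneus and 1751 from C57BL/6, so that castaneus held 51.2% of the calls in place of 39.9%.

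Read depth set how small a difference could pass. In the 3013 genes with the fewest reads (63 to 350 over the 3 libraries) the smallest passing log2 ratio was 0.72, and in the 3013 with the most it was 0.06. The share of genes passing was 25.8% in the first set and 44.4% in the last, and the share passing at 2-fold was 24.2% and 3.48%. A share of 10 in 20 reads has an exact (Clopper-Pearson) 95% interval of 27.2% to 72.8%, and 500 in 1000 reads one of 46.9% to 53.1%. Intervals and limits here cover counting error only. In a chi-square test of the 3 libraries, 4344 genes (36.0%) varied by more than that at an unadjusted p under 0.05. Counting error alone would put some genes in that count.

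The lists described here differed in depth. The share passing was 67.1% among cytosolic ribosomal protein genes (median 10608 reads per gene), 58.6% in the T cell receptor signalling list (10501) and 18.4% among Zfp genes (619), beside 31.4% over all chosen genes (1024). The GIMAP genes, at 77.8%, had a median of 2318 reads.

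**Figure D2:**
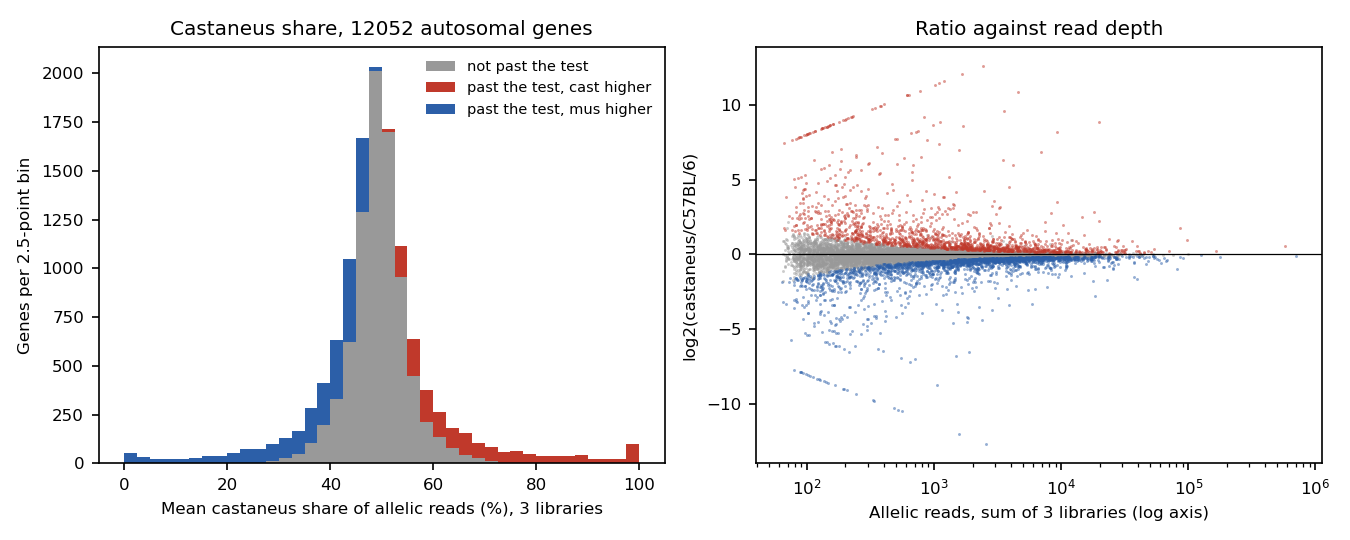
Left, number of genes per 2.5-point bin of mean castaneus share (percent) over the 3 unstimulated libraries, stacked by test outcome. Right, log2 ratio of castaneus to C57BL/6 reads from the fit against the gene's summed allelic reads on a log axis, 1 point per gene; the slanted lines at the edges are genes with no read of 1 allele, whose fitted ratios depend on the small prior count. The peak lies just under 50%, and passing genes reach closer to 0 on the log2 axis as reads increase.

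In each of the 10 imprinted genes that passed, the allele of the parent known to express it was higher. Of 8 maternally expressed genes read here 3 were higher from the maternal C57BL/6 allele and none from castaneus. Of 10 paternally expressed genes 7 were higher from the paternal castaneus allele and none from C57BL/6. Their median castaneus shares were 47.7% and 90.6%, beside 48.9% over all chosen genes. These lists hold 18 and 30 genes of the tables, the rest of which were under the read minimum.

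Among the maternally expressed genes, Grb10, an adaptor that restrains insulin receptor signalling, had castaneus shares of 0%, 0% and 0% in 205 reads. A count of 0 allows castaneus shares of up to 6.38%, 6.82% and 2.63% in the 3 libraries. Igf2r, the receptor that carries IGF2 to lysosomes for breakdown, stood at 8.59%, 9.61% and 7.47% (log2 ratio -3.42, SE 0.10, adjusted p = 1.47e-12). In both genes nearly all reads came from the maternal allele in each library. Gnas, which encodes the stimulatory G protein alpha subunit, was less one-sided at 35.6%, 39.7% and 36.6% (log2 ratio -0.75, SE 0.09, adjusted p = 1.98e-05). The other 5 did not pass: H13, an intramembrane protease gene, stood at 49.6%, 48.8% and 51.5%, and Ube3a, a ubiquitin ligase gene imprinted in neurons, at 50.4%, 55.6% and 48.8%. Osbpl5, Commd1 and Trappc9 likewise did not pass.

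Among the paternally expressed genes, Kcnq1ot1, a long noncoding RNA that silences its neighbours in cis, stood at 99.7%, 99.9% and 99.8% in 19936 reads (log2 ratio 8.88, SE 0.10, adjusted p = 8.78e-17). Mest, a hydrolase-like gene, and Snhg14, the host transcript of small nucleolar RNAs, had no C57BL/6 read among 102 and 95 reads. Airn, the antisense RNA that silences Igf2r on the paternal copy, stood at 100%, 96.9% and 100%. These 4 were read almost only from the castaneus copy in every library.

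Replicate 2 had lower shares than the other libraries in 3 further paternally expressed genes. Zrsr1, a gene for a splicing-factor-related protein, stood at 100%, 75.99% and 100%, Peg13, a noncoding RNA, at 94.5%, 77.8% and 95.3% and Impact, a regulator of translation, at 81.4%, 60.6% and 84.7%. Their log2 ratios were 3.58 for Zrsr1 (SE 0.64, adjusted p = 0.000536), 3.17 for Peg13 (SE 0.32, adjusted p = 2.31e-06) and 1.70 for Impact (SE 0.27, adjusted p = 0.000186). Each still lay above 50% in all 3 libraries. Of the 10 imprinted genes that passed, Gnas, Mest, Snhg14, Kcnq1ot1 and Zrsr1 have exons overlapping those of another annotated gene, and the other 5 do not. Sfmbt2, Mcts2 and Inpp5f did not pass.

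To set the opposite pair on chromosome 17 beside other imprinted starts, the 250 bases before the RefSeq start of 4 of these genes are printed, from RefSeq on build GRCm38.p6. The capitals mark CG dinucleotides, the sites at which DNA methylation is laid down. The sequences are those of the reference and are the same for each allele here, since castaneus bases were not used.
Igf2r: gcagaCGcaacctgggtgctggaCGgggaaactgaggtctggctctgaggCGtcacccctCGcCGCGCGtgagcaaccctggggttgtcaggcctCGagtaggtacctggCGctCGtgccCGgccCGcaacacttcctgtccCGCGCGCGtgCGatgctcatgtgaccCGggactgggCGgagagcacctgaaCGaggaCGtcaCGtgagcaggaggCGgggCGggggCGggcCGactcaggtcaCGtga
Airn: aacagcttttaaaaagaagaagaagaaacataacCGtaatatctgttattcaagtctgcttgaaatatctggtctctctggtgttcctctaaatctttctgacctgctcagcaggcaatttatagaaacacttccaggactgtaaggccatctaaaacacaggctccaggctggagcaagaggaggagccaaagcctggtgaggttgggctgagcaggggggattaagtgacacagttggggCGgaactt
Kcnq1ot1: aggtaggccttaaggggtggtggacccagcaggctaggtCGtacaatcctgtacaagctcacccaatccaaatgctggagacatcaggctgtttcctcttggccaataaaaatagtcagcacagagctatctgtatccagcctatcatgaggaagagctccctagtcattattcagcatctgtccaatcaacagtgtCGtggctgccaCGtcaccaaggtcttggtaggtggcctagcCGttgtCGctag
Zrsr1: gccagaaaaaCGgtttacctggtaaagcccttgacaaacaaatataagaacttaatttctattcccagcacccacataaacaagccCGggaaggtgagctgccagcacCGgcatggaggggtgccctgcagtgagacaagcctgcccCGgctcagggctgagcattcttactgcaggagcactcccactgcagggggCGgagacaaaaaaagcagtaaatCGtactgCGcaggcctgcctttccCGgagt

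The Igf2r window (chr17:12769707-12769956, minus strand) holds 27 CG dinucleotides, a number reached by 8.16% of 27025 promoters of that length in the table. The Airn window (chr17:12741061-12741310, plus strand), which lies inside Igf2r on the other strand, holds 2, a number reached by 80.6%. Kcnq1ot1 (chr7:143296548-143296797, minus strand) holds 5, reached by 55.5%, and Zrsr1 (chr11:22971755-22972004, plus strand) 8, reached by 43.4%. The median over all promoters is 6. So of these windows before the start, the Igf2r one, on the maternally read gene, is the one dense in CG. Bases at and after each start were not counted, so the windows do not give the CG content of whole promoters. Methylation was not measured.

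**Figure D3:**
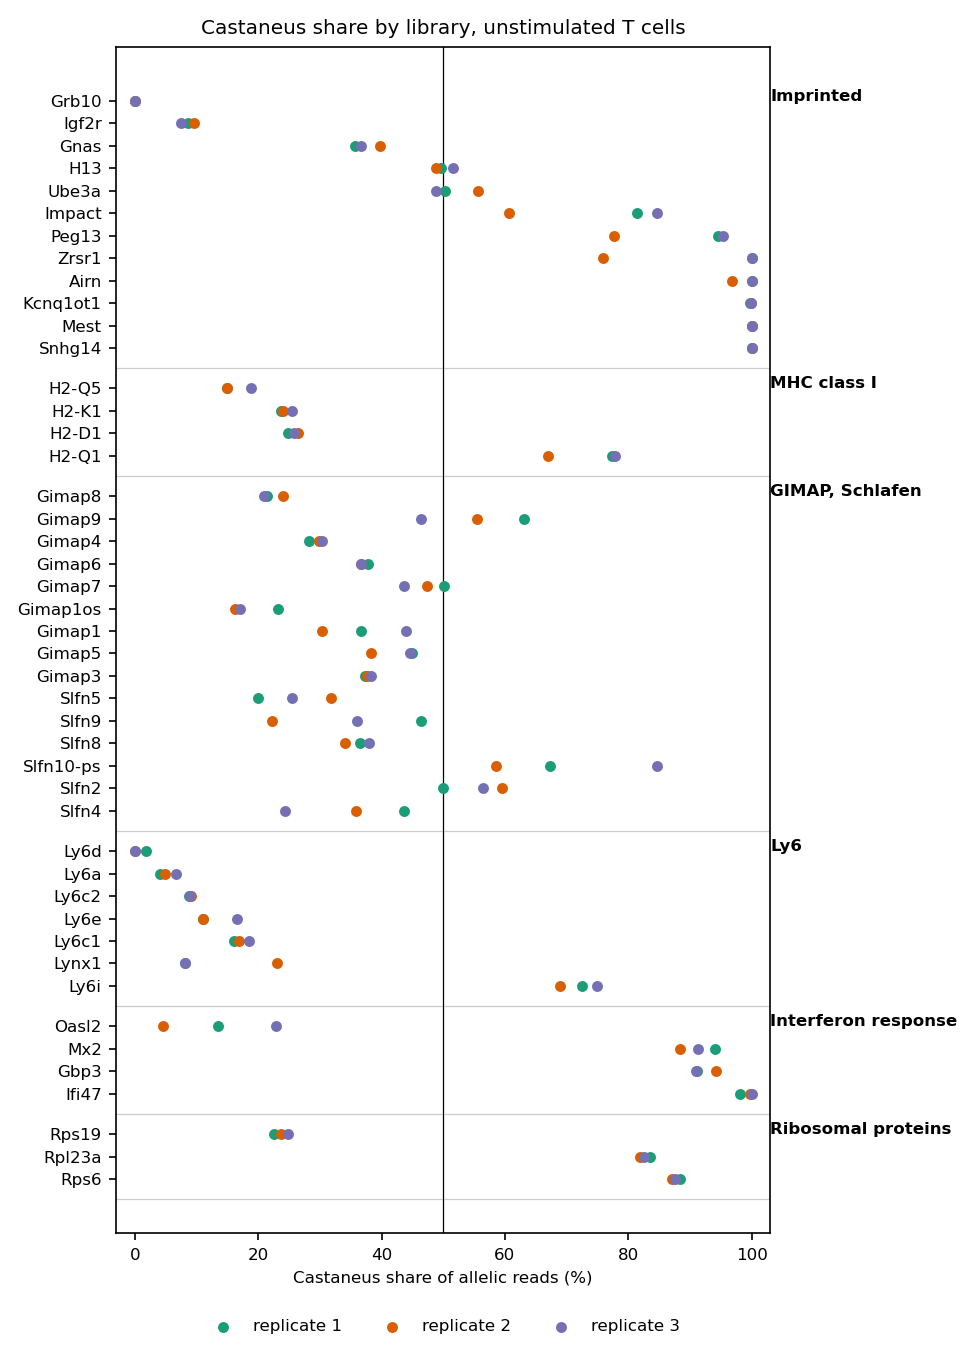
Castaneus share of allelic reads (percent) in each unstimulated library for imprinted genes and for members of 5 gene groups; each point is 1 library and the vertical line is 50%. The libraries lie close together for most genes, for example 23.7%, 24.1% and 25.5% for H2-K1, and replicate 2 is the low library in Zrsr1, Peg13 and Impact.

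The most one-sided protein-coding genes were read from 1 allele in all libraries. Higher from castaneus, Clcf1, a cytokine of the interleukin-6 family, and Ado, an oxygen-sensing thiol dioxygenase, had no C57BL/6 read among 1004 and 634 reads. Zhx1, a zinc finger and homeobox repressor, stood at 100%, 99.6% and 100%, and Jund, an AP-1 subunit, at 99.3%, 100% and 100%. Trem1, an activating receptor of myeloid cells, stood at 100%, 98.8% and 99.5%. Celf1, a splicing regulator, stood at 98.8%, 100% and 100%, but with 0.27 times the median gene's number of allelic reads per unit of expression, so few of its reads could be given to an allele. Gm10073, 0610030E20Rik, Ifi47 and Gm12185 completed the 10 with the largest ratio. Exons of Clcf1, Zhx1, Jund, Ifi47, Gm12185 and 0610030E20Rik overlap those of another annotated gene.

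Higher from C57BL/6, Rps27rt, a retrotransposed ribosomal protein gene, had no castaneus read in 516. Eps8l1, related to actin-capping EPS8, stood at 0%, 0% and 1.16%, Ly6d, a lymphocyte surface antigen, at 1.73%, 0% and 0% and F2rl1, a protease-activated receptor, at 0.876%, 1.34% and 0.998%. Celsr1, a planar polarity cadherin, stood at 5%, 3.88% and 4.86%, and Nav2, a neuron navigator, at 4.44%, 6.1% and 4.64%. Nfatc3, a calcineurin-dependent transcription factor of T cells, stood at 6.34%, 3.85% and 2.1% (log2 ratio -4.52, SE 0.20, adjusted p = 3.39e-10), and Tcirg1, a proton pump subunit, at 1.25%, 9.8% and 3.31%. The last 2 had only 0.0981 and 0.107 times the median gene's allelic reads per unit of expression, so their ratio rests on a small part of their RNA. Sec31b and Apol7e were the others of the 10. Exons of Eps8l1, Nav2, Nfatc3, Sec31b and Apol7e overlap those of another annotated gene.

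MHC class I genes present peptides to CD8 T cells and differ in sequence between strains more than most genes. Of 23 members of the class I and antigen presentation list 14 passed (60.9%, beside 31.4% over all chosen genes). Of the 14, 3 were higher from castaneus and 11 from C57BL/6. The list had a median castaneus share of 47.2% and a median of 4856 reads per gene, beside 1024 over all chosen genes. The classical genes H2-K1 and H2-D1 stood at 23.7%, 24.1% and 25.5% and at 24.9%, 26.5% and 25.9%, alike in the 3 libraries. Their log2 ratios were -1.63 for H2-K1 (SE 0.04, adjusted p = 7.95e-14) and -1.53 for H2-D1 (SE 0.03, adjusted p = 1.15e-13). The nonclassical H2-Q5 stood at 14.96%, 15% and 18.8%, and H2-Q1 went the other way at 77.4%, 67.05% and 77.8%. H2-Q1 had 239 reads and 0.0693 times the median gene's allelic reads per unit of expression, against 0.627 for H2-K1. These genes are near-identical copies of each other, so reads may have been split between them and their values are uncertain.

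GIMAP genes encode GTPases that keep lymphocytes alive and lie next to each other on chromosome 6. All 9 with that name in the tables were read. They take in Gimap1os, which is not protein-coding and is among those that passed. Of the 9, 7 were higher from C57BL/6 and none from castaneus, under each of the 3 scalings. That is 77.8%, beside 31.4% of all chosen genes passing in either direction. Gimap8 stood at 21.5%, 24.1% and 20.9% (log2 ratio -1.82, SE 0.10, adjusted p = 3.43e-09) and Gimap4 at 28.3%, 29.8% and 30.3% (log2 ratio -1.26, SE 0.05, adjusted p = 4.03e-11). Gimap6, Gimap3, Gimap1 and Gimap5 were closer to equal, at 37.9%, 36.6% and 36.6%, 37.3%, 37.6% and 38.4%, 36.6%, 30.3% and 43.9% and 44.99%, 38.4% and 44.6%. Gimap9 and Gimap7 did not pass, at 63.1%, 55.4% and 46.4% and 50.2%, 47.4% and 43.6%. Gimap1os, an RNA from the strand opposite Gimap1, stood at 23.3%, 16.2% and 17.1%. Exons of Gimap1os, Gimap1, Gimap5 and Gimap7 overlap those of another annotated gene.

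Schlafen genes encode factors of lymphocyte quiescence and antiviral defence. Of 6 read, 4 were higher from C57BL/6 (66.7%, beside 31.4% of all chosen genes passing in either direction) and none from castaneus. Slfn5 stood at 20%, 31.8% and 25.4% (log2 ratio -1.55, SE 0.16, adjusted p = 2.7e-06). Slfn4, Slfn9 and Slfn8 stood at 43.6%, 35.9% and 24.4%, 46.4%, 22.2% and 36% and 36.5%, 34.1% and 37.9%, and each of these 3 lost its call when replicate 3 was left out. Slfn10-ps and Slfn2 did not pass.

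Ly6 genes encode small surface proteins anchored by a lipid, several of them used as lymphocyte markers. They were described after their values were seen. Ly6a, which encodes the Sca-1 antigen, stood at 4.08%, 4.88% and 6.62% (log2 ratio -4.19, SE 0.16, adjusted p = 3.34e-11). Ly6c2, a marker of memory CD8 T cells and monocytes, stood at 8.74%, 9.06% and 9%, Ly6e at 11.02%, 11.1% and 16.6% and Ly6c1 at 16.05%, 16.9% and 18.5%. Their neighbours Ly6d and Lynx1 were higher from C57BL/6 too, Lynx1 at 8.05%, 23.1% and 8.16%. Ly6i, between Ly6e and Ly6a, went the other way at 72.5%, 69% and 74.9% (log2 ratio 1.38, SE 0.24, adjusted p = 0.000409), and Ly6g, a neutrophil antigen gene, did not pass.

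Killer cell lectin-like receptors recognise class I molecules and are found on NK cells and some T cells. Of 26 read 14 passed (53.8%, beside 31.4% over all chosen genes), 6 higher from castaneus and 8 from C57BL/6. The median castaneus share of the list was 48.1%. Klrc1 and Klrc2, which encode the inhibitory NKG2A and activating NKG2C, stood at 22.2%, 18.1% and 24.5% and at 23.7%, 22.2% and 24.5%. Klra11-ps and Klra14-ps were higher from castaneus, at 81.6%, 67.2% and 77.6% and 77.9%, 73.7% and 70.1%. Among NK cell markers 7 of 11 passed (63.6%), 3 from castaneus and 4 from C57BL/6 (5 and 4 with TMM factors). Klra8, an activating Ly49 receptor, stood at 30.6%, 27.2% and 29.02%, Klrk1, which encodes NKG2D, at 37.1%, 35.3% and 41.3% and Klra9 at 61.7%, 60.3% and 63.1%. Klra11-ps and Klra14-ps are annotated as pseudogenes. Whether reads were split between members of the Klra family was not tested, so their values are uncertain.

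The T cell receptor complex and its first signalling proteins carry the signal for activation. Of 29 read 17 passed (58.6%, beside 31.4% over all chosen genes), 5 higher from castaneus and 12 from C57BL/6. Under the other scalings the counts were 6 and 8. The list had a median castaneus share of 48.0%, a median of 10501 reads per gene and no 2-fold gene. Cd28, the main costimulatory receptor, had the largest difference at 66.98%, 68.6% and 63.5% (log2 ratio 0.98, SE 0.07, adjusted p = 6.15e-08). Bcl10, the adaptor that joins receptor signals to NF-kB, stood at 35.8%, 40.2% and 38.4% (log2 ratio -0.70, SE 0.08, adjusted p = 8.72e-06). Cd8b1, the CD8 beta chain, and Cd5, an inhibitory coreceptor, stood at 42.6%, 41.1% and 39.7% and at 45.7%, 43.1% and 42.05%. Of the 17 T cell markers among the chosen genes 12 passed (70.6%, beside 31.4% over all chosen genes), 6 in each direction. These markers had a median of 11274 reads per gene. Trac, the receptor alpha constant region, stood at 42.4%, 39.4% and 37.6%.

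Genes of naive and quiescent T cells hold cells in circulation and out of the cell cycle. Of 27 read 14 passed (51.9%, beside 31.4% over all chosen genes). The list had a median castaneus share of 48.1% and a median of 12002 reads per gene, beside 1024 over all chosen genes. Of the 14, 2 were higher from castaneus and 12 from C57BL/6. With TMM factors the counts were 4 and 10. Actn1, the actin crosslinker alpha-actinin, stood at 27.01%, 25.4% and 29.3% (log2 ratio -1.42, SE 0.06, adjusted p = 1e-10), the 1 gene of the list past 2-fold. S1pr1, the receptor by which T cells leave lymph nodes, stood at 37.01%, 36.9% and 37.9%, and Ms4a6b, a membrane protein gene, at 39.1%, 40.5% and 41.5%. Klf6, a Kruppel-like factor, stood at 35.4%, 38.01% and 37.01% with 0.185 times the median gene's allelic reads per unit of expression.

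Cytokine and chemokine receptors were mixed. Of 48 read 22 passed (45.8%, beside 31.4% over all chosen genes). Of the 22, 8 were higher from castaneus and 14 from C57BL/6 (11 and 12 with TMM factors). The median castaneus share of the list was 48.9%. Cxcr6, a homing receptor of memory T cells, stood at 25.1%, 31.8% and 30.1%, and Il9r at 25.2%, 42.7% and 18.2%. Il17rd was higher from castaneus at 68.2%, 80% and 76.9%, and Il20rb, at 23.5%, 43.9% and 23.5%, lost its call without replicate 1 or without replicate 3.

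Interferon response genes encode antiviral effectors. Of 52 read 28 passed (53.8%, beside 31.4% over all chosen genes), 17 higher from castaneus and 11 from C57BL/6. At 2-fold 14 passed (26.9%, beside 11.2% over all chosen genes), 8 and 6. The list had a median of 1247 reads per gene, beside 1024 over all chosen genes. The median castaneus share was 49.1%, so the list had large differences in both directions around a centre like that of all genes. Ifi47, an interferon-inducible GTPase, stood at 98.1%, 99.8% and 100% (log2 ratio 6.98, SE 0.33, adjusted p = 5.86e-10). Gbp3, a guanylate-binding protein, and Mx2, a dynamin-like GTPase, stood at 91.1%, 94.2% and 90.99% and 94.1%, 88.4% and 91.3%. Oasl2, of the oligoadenylate synthetase family, went the other way at 13.4%, 4.6% and 22.8% (log2 ratio -2.71, SE 0.33, adjusted p = 1.4e-05).

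Cytosolic ribosomal protein genes had many small differences. Of 70 read 47 passed (67.1%, beside 31.4% over all chosen genes), 27 higher from castaneus and 20 from C57BL/6. At 2-fold 9 passed, 3 and 6 (12.9%, near the 11.2% over all chosen genes). The list had a median of 10608 reads per gene, beside 1024 over all chosen genes. Rps6, a target of S6 kinase, stood at 88.4%, 87.1% and 87.6% (log2 ratio 2.84, SE 0.05, adjusted p = 1.43e-14), Rpl23a at 83.5%, 81.9% and 82.6% and Rpl19 at 79.3%, 79.5% and 81.1%. In the other direction Rps19, whose human form is mutated in Diamond-Blackfan anaemia, stood at 22.6%, 23.7% and 24.8%, Rpl35a at 23.04%, 22.7% and 21.5% and Rpl29 at 20.6%, 9.57% and 14.4%. Each gene lay far from 50% in every library. Fau, which encodes a ribosomal protein fused to a ubiquitin-like domain, stood at 64.1%, 68.5% and 68.6%. Rpl29 had 0.0762 times the median gene's allelic reads per unit of expression. Ribosomal protein genes have many processed copies in the genome, so reads may be shared with those copies and these values are uncertain.

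Nuclear-encoded respiratory chain genes passed in 21 of 63 (33.3%), near the 31.4% over all chosen genes, 9 higher from castaneus and 12 from C57BL/6 (9 and 8 with TMM factors). Uqcrc1, a core subunit of complex III, stood at 68.4%, 66.6% and 71.4% (log2 ratio 1.15, SE 0.08, adjusted p = 5.69e-08), and Atp5c1, of ATP synthase, at 31.96%, 34.1% and 35.8%. Ndufa7 and Ndufb7, subunits of complex I, went in opposite directions, at 67.6%, 76.3% and 83.6% and 34.9%, 24.5% and 30%. Proteasome genes passed in 6 of 36 (16.7%), 2 and 4 (3 and 3 with TMM factors), and none at 2-fold. Psmb1, a core subunit, stood at 60.4%, 59.3% and 60.1%. Psmd9, at 42.4%, 36.9% and 43.9%, lost its call without any 1 of the 3 libraries, and Psmd2 and Psmc5 each without at least 1.

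Zinc finger genes named Zfp passed in 43 of 234 (18.4%, beside 31.4% over all chosen genes), 11 higher from castaneus and 32 from C57BL/6. With TMM factors the counts were 12 and 25. At 2-fold 3.42% passed, beside 11.2% over all chosen genes. The list had a median of 619 reads per gene, beside 1024 over all chosen genes. Zfp783 stood at 8.74%, 11.7% and 11.7%, Zfp839 at 23.9%, 26.7% and 26.2% and Zfp229 at 89.4%, 71.4% and 83.3%. Zfp683, which encodes Hobit, a factor of tissue-resident lymphocytes, varied from library to library at 0%, 8.16% and 32.1% in 125 reads.

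Genes of other spleen cells were unequal as well. B cell markers passed in 6 of 14 (42.9%, beside 31.4% over all chosen genes), 3 in each direction. Fcer2a, the low-affinity IgE receptor CD23, stood at 21.5%, 14.8% and 13.95%. Myeloid markers passed in 9 of 16 (56.25%), 6 from castaneus and 3 from C57BL/6. Lyz1, a lysozyme, stood at 71.7%, 69.03% and 73.4% and Cd14, the lipopolysaccharide coreceptor, at 73.1%, 77.95% and 74.4%, while Ngp, a neutrophil granule protein, stood at 38.2%, 37.9% and 36.1%. Erythroid and platelet markers passed in 5 of 9 (55.6%), 2 and 3. The B cell, myeloid and erythroid lists had medians of 2257.5, 4350 and 2756 reads per gene, beside 1024 over all chosen genes. Car2 and Car1, carbonic anhydrases of red cells, stood at 16.6%, 14.5% and 18.2% and 22.6%, 24.6% and 22.1%, and Hbb-bt, an adult beta globin, at 74.03%, 62.3% and 69.6%. The RPKM of these genes differed between libraries, Car2 at 12.2, 16.6 and 93.5 RPKM, while its castaneus share moved by less than 4 points.

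Receptor gene segments recombine in single lymphocytes, so their read counts also reflect which clones are present. T cell receptor segments passed in 40 of 122 (32.8%), near the 31.4% over all chosen genes, 26 higher from castaneus and 14 from C57BL/6. Trbv21 stood at 94.4%, 95.7% and 100%, Trav7d-3 at 94.5%, 92.5% and 98.6% and Trav3-1 at 93.1%, 88.3% and 90%. Immunoglobulin segments passed in 83 of 147 (56.5%), 42 and 41. Igkv13-85 and Ighv1-76 had no castaneus read in 166 and 106 reads, and Ighv5-12-4 no C57BL/6 read in 116. Segments are near-identical copies of each other, and these values are uncertain for that reason.

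A castaneus share of at least 90% or at most 10% in each library was seen in 243 genes (144 and 99). Of these 122 were protein-coding (73 and 49), 1.18% of such genes, while 76 of 285 pseudogenes (26.7%) were read from 1 allele in this way. No read of C57BL/6 was seen in 52 of the 243 and no read of castaneus in 27. Genes read from 1 allele had as a median 1.31 times the median gene's allelic reads per unit of expression, and genes that did not pass 0.958 times. Of the first 9.50% lay below 0.5 times, and of the second 16.1%.

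Genes with large differences often lay next to each other. Among neighbouring pairs of chosen genes, the next gene after a 2-fold gene was 2-fold in the same direction in 17.3% and in the opposite direction in 5.73% of 1343. Over all chosen genes 5.63% were at least 2-fold higher from castaneus and 5.59% from C57BL/6. Counting a neighbour on either side, 32.8% (161 of 491) of protein-coding genes at least 2-fold higher from castaneus had one in the same direction. Of those higher from C57BL/6 it was 20.8% (97 of 466). A neighbour on either side is met more often than the next gene alone, so these shares are not to be set against 17.3%. Where gene bodies did not overlap the shares after a 2-fold gene were 16.0% and 5.97%. Runs of at least 3 neighbours, each 2-fold in 1 direction, numbered 39 with 155 genes, 30 higher from castaneus and 9 from C57BL/6. Without receptor segments these counts were 27 and 6. The run length was chosen after the data were seen.

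A run of 7 genes higher from castaneus lay on chromosome 6 (chr6:72318678-72439558), from Usp39 to Mat2a. Rnf181, a ubiquitin ligase gene, stood at 96.2%, 100% and 97.9%, Vamp8, a SNARE of cytotoxic granule release, at 77.3%, 77.2% and 75.3%, and Mat2a, which makes S-adenosylmethionine, at 86.98%, 89.02% and 83.4%. On either side St3gal5 and Capg stood at 36.8%, 40.9% and 50.9% and 50.5%, 51.2% and 51.04%. On chromosome 15 (chr15:58022259-58457740) 6 genes from 9130401M01Rik to Fam91a1 were higher from castaneus. Among them Fbxo32, a ubiquitin ligase subunit, stood at 82.7%, 84.1% and 83.3% and Atad2 at 73.9%, 69.9% and 66.7%.

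On chromosome 10 (chr10:7440362-7763150) the run of 5 held Lats1, a kinase of the Hippo pathway, at 88.7%, 88.5% and 91.6%, and Pcmt1, a protein repair enzyme, at 86.5%, 84.5% and 84.6%. On chromosome 19 (chr19:4148619-4191284) Ptprcap, which binds CD45, stood at 80.95%, 80.8% and 82.6% and Tbc1d10c, an inhibitor of calcineurin, at 82.5%, 80.7% and 83.4%. All 5 genes of that last run have exons overlapping another gene's. Serinc3, a membrane protein that restricts retroviruses, was the most read 2-fold gene, at 78.7%, 78.9% and 74.3% in 85972 reads (log2 ratio 1.77, SE 0.05, adjusted p = 2.36e-12). It began a run of 4 on chromosome 2 (chr2:163623272-163750239) that ended at Ada, adenosine deaminase, at 73.5%, 78.8% and 79.1%. The Ugt1a run of 7 on chromosome 1 lay inside a block where replicate 2 stood apart. The longest, of 9, were Trav segments.

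**Figure D4:**
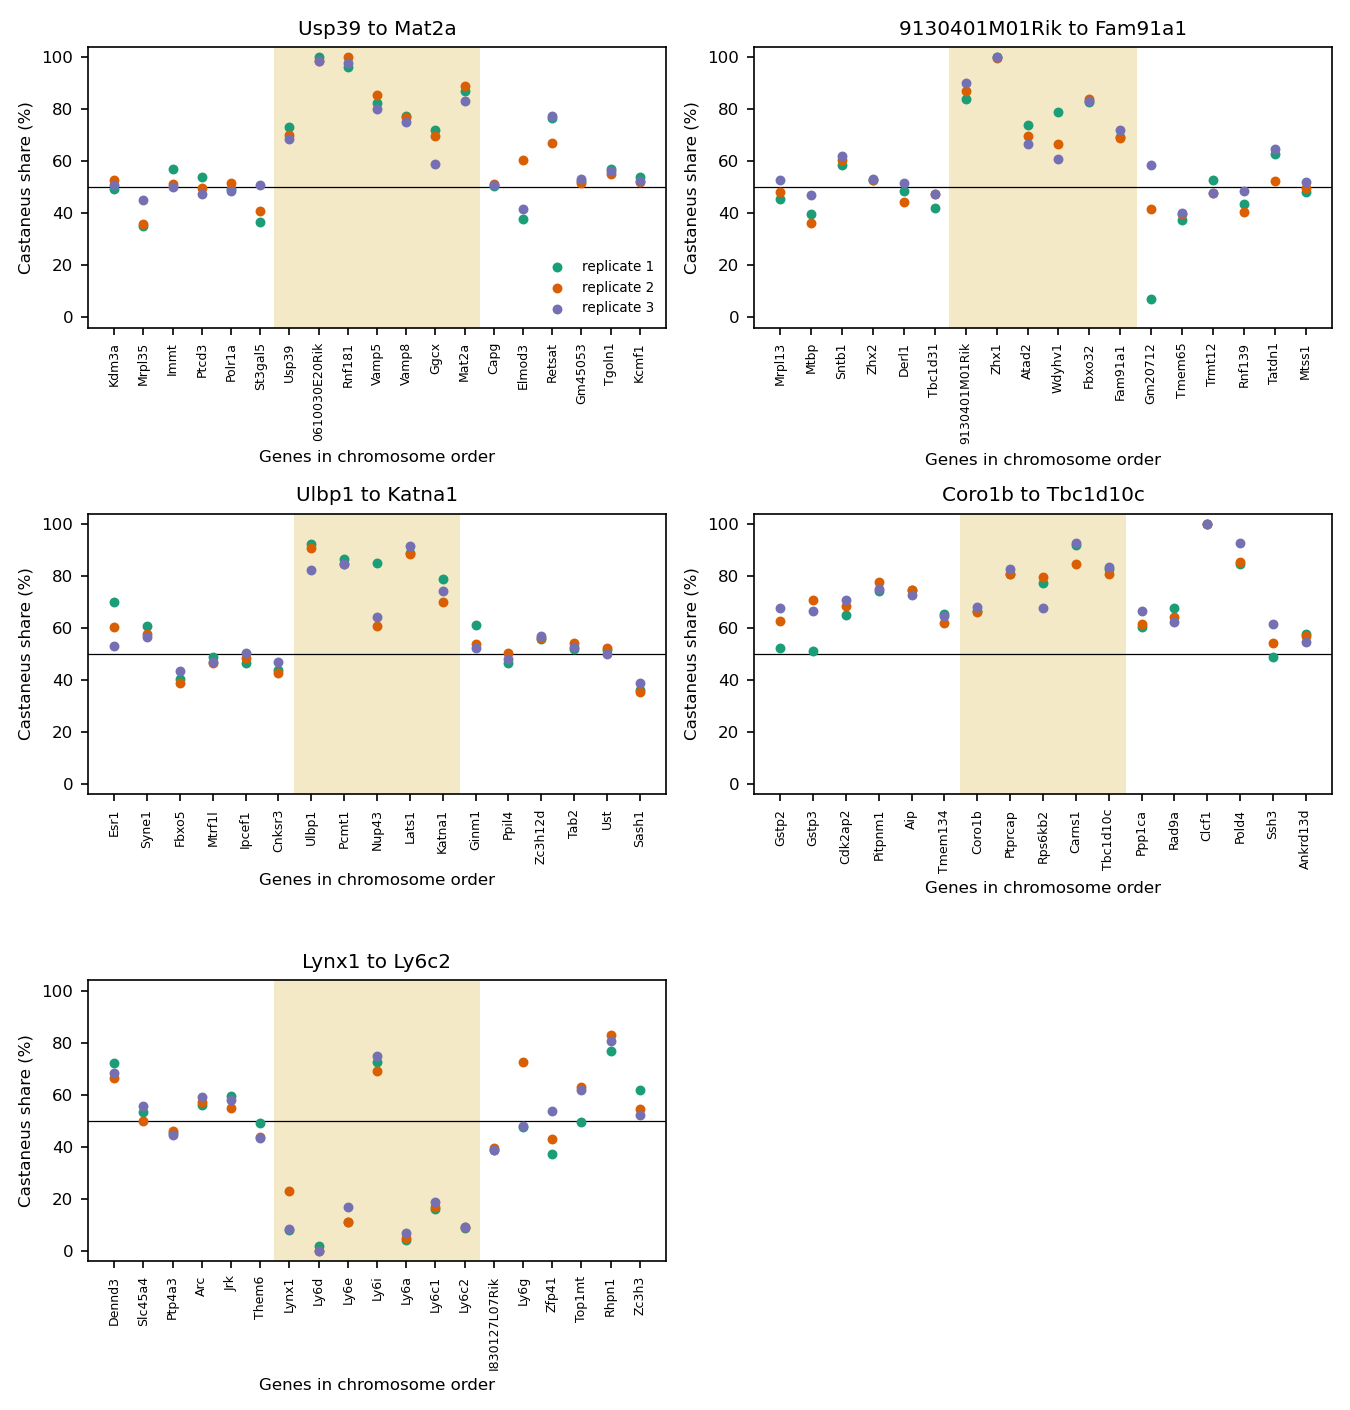
Castaneus share (percent) by library for genes in chromosome order, in 4 of the 5 runs with at least 5 protein-coding genes and in the Ly6 region, with 6 neighbours on each side. Shading marks the run or, in the last panel, Lynx1 to Ly6c2; in the Ly6 region Ly6i lies above 50% in all 3 libraries and the 6 other shaded genes below it.

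The most read genes differed little. Malat1, a nuclear noncoding RNA, stood at 48.7%, 48.5% and 48.2% in 708148 reads (log2 ratio -0.09, SE 0.01, adjusted p = 3.77e-06). Ptprc, which encodes CD45, stood at 47.2%, 47.1% and 46.9% (log2 ratio -0.17, SE 0.02, adjusted p = 1.54e-06). Eef2, a translation elongation factor gene, stood at 49.2%, 48.97% and 48.7% (log2 ratio -0.06, SE 0.02, adjusted p = 0.026), and its sign turned with TMM factors. Malat1 did not pass with TMM factors (adjusted p = 0.105). Rpph1 and Rmrp, the RNA parts of RNase P and RNase MRP, were higher from castaneus at 55.8%, 62.003% and 62.1% and 54.1%, 53.6% and 53.1%, and their exons overlap other genes.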

How the data were processed

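Stranded total RNA libraries of splenic CD3+ T cells were analysed for 3 unstimulated replicates. Per the submitters' processing notes STAR 2.7.1a, featureCounts and mm10 were used; which annotation, strand setting and allele-assignment rule were used is not given in the sources used here. The deposited counts are whole reads per gene and allele. The deposited RPKM values are of both alleles together, normalized by the authors, and served for markers and for allelic reads per unit of expression (reads divided by RPKM times exon length, over the median gene).

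Alleles were compared in edgeR 4.0.16 (R 4.3.3) by the quasi-likelihood test on 6 columns, with library and allele as terms. Both alleles of a library were counted in that library, which is where the pairing comes from, and both columns had its allelic total as library size, so the ratio was not rescaled. P-values were two-sided, with Benjamini-Hochberg adjustment over 12052 genes, and passed under 0.05; 2-fold also needs an absolute log2 ratio of 1. SE is the log2 ratio over the root of F. With 3 biological replicates whose animals are not described, p-values measure the spread between these samples.

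Positions, gene types and exon overlap came from GENCODE M21, which 49326 of 49671 identifiers matched; 22 chosen genes had none. The test was tried on simulated counts. 1 run of neighbouring genes is not reported here. Named genes were, per direction, the 10 most one-sided protein-coding genes with 100 reads in each library and the 5 most read at 2-fold; up to 4 per list; all imprinted genes; and the 5 most read. The genes, lists and rules were chosen with earlier results of these data known. Alternatives were other scalings, read minimums, DESeq2 1.42.0, no block, gene classes, single libraries left out, X-linked genes added, and blocks left out.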

Additional observations from a re-analysis of the deposited data

How the results depend on the processing

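Both alleles were counted in the same library, so the library was a block. Without a replicate block (and with column totals as library sizes) the pairing was lost and 1820 genes passed, 896 higher from castaneus and 924 from C57BL/6. Of the 3783 calls 1817 were shared with that fit, 2644 of 2645 with DESeq2, and no shared call changed sign in any alternative. Leaving out 1 library gave 2705 to 3304 calls. Without genes of overlapping exons, which leaves fewer genes, 2428 passed (991 and 1437) and 5 imprinted genes had the parental allele higher, against 10; with protein-coding genes alone it was 6. At 50 reads per library, which also leaves fewer genes, 444 genes were 2-fold higher from C57BL/6.

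The 243 genes read from 1 allele became 821 with no minimum, 129 at 50 reads, 122 with protein-coding genes alone and 151 at 95% and 5%. The median share was 49.1% with no minimum and 48.8% to 49.0% with 1 library left out. The summed share was 49.0% with protein-coding genes alone (49.018%), 49.0044% without overlapping exons and 49.3149% without the blocks of 5 or more genes; the cause was not tested. Without the blocks of 4 or more genes 3925 of 11657 genes passed, and without those of 5 or more 3971 of 11799; both were added after seeing the data.

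Of 112 named genes that passed, 86 did so in each of the 14 alternatives that tested them. Signs turned in Eef2 (TMM, 0.0069), Trappc9 (TMM, 0.0091), H13 (column totals 0.036, TMM 0.066, no block 0.032, -0.045 to 0.032 with 1 library left out), Sfmbt2 (-0.084 to 0.124) and Ube3a (-0.024 to 0.169 with 1 library left out, the low value without replicate 2). Depth limits low genes: the smallest passing log2 ratio was 0.72 in the 3013 least read genes.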

Other observations

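The genes of the blocks in which 1 unstimulated library stood apart were also read in the stimulated libraries, and their values there are given as a description. The labels do not say that an unstimulated and a stimulated library of the same number came from the same animal. The block rule was first run with at least 4 genes per block and then with at least 5, with the stimulated values in view, so the smaller set is not an independent choice. On chromosome 11 the stimulated medians, over the genes picked for standing apart in unstimulated cells, were 94.6%, 51.2% and 52.1% in replicates 1, 2 and 3, and replicate 1 was the library apart in unstimulated cells. In the chromosome 1 blocks, where replicate 2 stood apart, they were 49.0%, 71.6% and 49.8%, and 49.4%, 80.1% and 49.1%. On chromosome 18, where replicate 3 stood apart, they were 47.6%, 48.5% and 70.8%. In these 4 blocks the library of the same number had the highest stimulated median. In the other 2 blocks, of 4 genes each, it did not stand apart the same way: on chromosome 17 the stimulated medians were 50.1%, 50.1% and 50.4%, and on chromosome 4 38.2%, 48.1% and 63.3%, with replicate 3 the highest in place of the lowest.

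Over the 6 blocks 49 genes were read in all stimulated libraries, and in 44 the library of the same number lay furthest in the same direction. By block it was 10 of 10 on chromosome 11 and 5 of 5 on chromosome 18. On chromosome 1 it was 8 of 8 in the smaller block and 18 of 19 in the larger. On chromosome 17 it was 2 of 4, and on chromosome 4 it was 1 of 3. No such count is given for the 401 genes standing apart that lay in no block. Cxcr4 stood at 28.9%, 100% and 36.8% in the stimulated libraries, Vamp2 at 97.3%, 41.8% and 44.7%, and Kif5b at 55.9%, 55.6% and 89.6%. The count of blocks depended on the rule. With 15 points and 3 genes there were 18 blocks, of which 4 had the library of the same number at least 10 points beyond the others in the same direction in stimulated cells. With 20 points and 3 genes there were 4 of 4, and with 10 points and 4 genes 9 of 71.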
